A study of Mus musculus with 11 samples.

Results

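The genes described here are the cytosolic ribosomal proteins and their paralogs, as measured in hearts of female mice. A gene was taken when its symbol began with Rpl or Rps followed by a digit, or was Rplp0, Rplp1, Rplp2 or Rpsa, and when its mean over all samples was at least 1 FPKM (fragments per kilobase of gene model and 1000000 counted reads). Names ending in -ps, which mark pseudogenes, and the Rps6k kinases were left out. Of 21878 listed rows, 81 had such a name and 78 of them passed the minimum, 29 with an Rps symbol and 49 with an Rpl symbol. The 3 rows under the minimum were Rpl10l, which was listed at 0 in every sample, Rps23rg1 at a mean of 0.119 FPKM with 28 reads in all, and Rpl39l at a mean of 0.239 FPKM with 30 reads in all. The member nearest above the minimum was Rpl32l at a mean of 2.41 FPKM. Rps19bp1 is taken by its name, although its product binds a ribosomal protein and is not one. Rps9, Rps10, Rps19, Rps21, Rps24, Rpl28 and Rplp2 were not analysed here, since no row carried an accession matched to them.

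The study compared hearts from mice with polycystic ovary syndrome (PCOS), a model made by giving anti-Müllerian hormone (AMH) before birth, with hearts from control mice that received phosphate-buffered saline as vehicle before birth. There were 5 PCOS samples and 6 control samples, all of them wild type and female. The labels used here name no age, strain or litter, and the exposure was prenatal in both groups. Nor do they say whether each sample is a mouse of its own, so a p-value sets a difference against the spread of these samples, part of which may be technical.

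Reads recovered from the FPKM steps summed to between 11866291 in control replicate 5 and 14346620 in PCOS replicate 3. Markers of cardiac muscle (7 of 8 matched, Myh6 and Tnnt2 among them) summed to 39573 to 43435 FPKM in PCOS samples and to 35736 to 41121 FPKM in control samples. Control replicate 6 stood apart. Across genes it correlated with its fellow samples at a median Pearson r of 0.962, where the remaining 10 samples reached 0.987 to 0.993, and its 8 liver markers summed to 1676 FPKM, against 1.76 to 2.71 FPKM in PCOS samples and 1.63 to 9.01 FPKM in the other control samples. For that reason the counts, medians, differences and ratios of the members are also given without it. All 6 matched macrophage markers of 8 had a positive difference, PCOS minus control, 1 of them (Cd68) passed the test over all genes, or 2 without control replicate 6 (Cd68 and Lyz2), and their sum was 277 to 387 FPKM in PCOS samples and 129 to 249 FPKM in control samples. Red cell markers summed to 851 to 2233 FPKM in PCOS samples and to 531 to 1531 FPKM in control samples. The part of these markers in the results on ribosomal proteins was not tested. In whole-heart RNA, fewer cells of a type and less RNA per cell cannot be told apart.

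The cytosolic ribosome is built from a small subunit, which holds the mRNA and reads its codons, and a large subunit, which forms peptide bonds and carries the stalk that recruits translation factors. Its proteins are needed in fixed proportions, and their mRNAs begin with a C followed by a run of pyrimidines, the 5′ terminal oligopyrimidine (TOP) motif, through which the kinase complex mTORC1 and the RNA-binding protein LARP1 adjust their translation. Striated muscle also makes Rpl3l, a paralog of the large-subunit protein Rpl3, and adult heart is one of the tissues it is known from.

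Promoter sequence was searched for the letters of that motif at annotated starts. The starts used in these hearts were not measured, so a start without a match does not show an mRNA without the motif. In RefSeq windows of GRCm38, 58 of the 78 members had an entry and gave 66 annotated starts. A C followed by at least 4 C or T letters stood exactly at the annotated start in 11 of the 66 windows (16.7%), against 2.34% of 9697 windows of all tested genes. The windows below run from 40 bases before the annotated start to 15 bases after it, on the gene's strand. Capitals mark the uninterrupted C and T run that begins at the start. Examples with a run are the small-subunit genes Rps18 (chr17:33955651-33955705, minus strand) and Rps27 (chr3:90213634-90213688, minus strand). Large-subunit examples are Rpl35 (chr2:39005117-39005171, minus strand) and Rpl38 (chr11:114668540-114668594, plus strand). Rpl3l (chr17:24727786-24727840, plus strand) is shown as the muscle paralog, and no run begins at its annotated start.
Rps18: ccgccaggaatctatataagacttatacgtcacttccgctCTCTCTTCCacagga
Rps27: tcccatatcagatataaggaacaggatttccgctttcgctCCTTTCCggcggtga
Rpl35: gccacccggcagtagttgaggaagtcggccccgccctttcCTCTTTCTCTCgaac
Rpl38: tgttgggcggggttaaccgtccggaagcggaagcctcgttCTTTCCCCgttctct
Rpl3l: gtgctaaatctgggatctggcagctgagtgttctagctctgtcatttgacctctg

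The runs are 9 letters long in Rps18, 7 in Rps27, 11 in Rpl35 and 8 in Rpl38. A start within 5 bases of the annotated one carried a C and at least 4 pyrimidines in 39.4% of member windows, against 20.2% of windows of tested genes. Within the full window, 250 bases before to 50 bases after the start, CCGGAAG on either strand was present in 33.3% of member windows and 17.5% of those of tested genes. AAGATGGC on either strand was present in 12.1% and 4.6%, and CACGTG in 10.6% and 9.87%. TATAAA was sought only on the gene's strand in the 50 bases before the start, and was present there in 0% and 1.43%. These are matches of letters, and no binding was measured.

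Coding sequence was compared between paralogs and their parent genes, since it bears on how far their reads can be told apart. The first 60 coding bases of 2 parents and 3 paralogs follow, from GENCODE release M21 transcripts on GRCm38, with capitals where a paralog differs from its parent. Rpl3 lies at chr15:80077791-80091868 (minus strand), Rpl3l at chr17:24727820-24736143 (plus strand), Rps27 at chr3:90212522-90213651 (minus strand), Rps27l at chr9:66946086-66949516 (plus strand) and Rps27rt at chr9:114982366-114982739 (minus strand).
Rpl3: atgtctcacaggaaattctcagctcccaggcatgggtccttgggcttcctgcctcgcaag
Rpl3l: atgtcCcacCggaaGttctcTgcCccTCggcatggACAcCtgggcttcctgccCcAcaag
Rps27: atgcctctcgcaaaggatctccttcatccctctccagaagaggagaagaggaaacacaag
Rps27l: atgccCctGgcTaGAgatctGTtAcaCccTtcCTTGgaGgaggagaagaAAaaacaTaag
Rps27rt: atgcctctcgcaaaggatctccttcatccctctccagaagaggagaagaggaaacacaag

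Rpl3l differs from Rpl3 at 13 of these bases and Rps27l from Rps27 at 18. Over the whole coding sequence, Rpl3l and Rpl3 were identical at 74.3% of 1206 aligned bases, and their longest shared run was 22 bases. Rpl36al and Rpl36a were identical at 87.7%, Rps27l and Rps27 at 76.2%, and Rpl7l1 and Rpl7 at 59.8%. Rpl37rt with Rpl37, and Rpl32l with Rpl32, were not compared, so how far their reads can be told apart is not known here. Rps27rt, a copy without introns, was identical to Rps27 at all 252 coding bases. Reads of Rps27rt and Rps27 that lie in the coding part therefore cannot be told apart by sequence, and how such reads were counted is not given in the sources used here. In the gene table, 58 members also had at least 1 named pseudogene, up to 24 for Rpl31, and their counts carry the same reservation.

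Ribosomal protein mRNAs were among the most abundant transcripts of these hearts. The median member had a mean of 350.5 FPKM over the 11 samples, against 7.6 FPKM for the median tested row, and 65 of the 78 were among the 500 most abundant rows. The 3 highest were Rplp1 at 1327 FPKM, a protein of the stalk, Rps29 at 1222 FPKM, a small-subunit protein, and Rpl41 at 1170 FPKM, the shortest protein of the ribosome. Only 3 members lay under 20 FPKM, namely Rpl32l at 2.41, Rps19bp1 at 12.6 and Rps27rt at 13.8 FPKM. In reads per 1000000, which do not divide by length, the order changed: Rplp0 led with 866, followed by Rps2 with 756, Rpsa with 699 and Rpl4 with 698. Together the members held 6.03 ± 0.318% of all listed FPKM in PCOS samples and 5.97 ± 0.535% in control samples (SD, n = 5 and 6), but 2.495 ± 0.183% and 2.40 ± 0.35% of the reads.

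The levels per length rest on gene models that were mostly short. Model length, recovered from the FPKM steps, had a median of 787.5 bases over the members and 3346 over tested rows, and 65.4% of members but 5.58% of tested rows were under 1000 bases. Mean FPKM fell with model length across the 78 members (Spearman rho -0.49), while mean reads hardly followed it (rho 0.15). Both are across genes, which share the same 11 libraries and are not replicates. Of the 70 members with a matched GENCODE transcript, 45 had a model within 10% of that transcript's length. The model exceeded the transcript by more than 1.5 times in 6 of them (Rpl18, Rpl21, Rpl36, Rpl3l, Rps27l and Rps6), and their FPKM are lower than that transcript's length would give. It was under 0.67 of the transcript in another 6 (Rpl12, Rpl35, Rps16, Rps23, Rps25 and Rps26), whose FPKM are higher than that length would give.

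**Figure D1:**
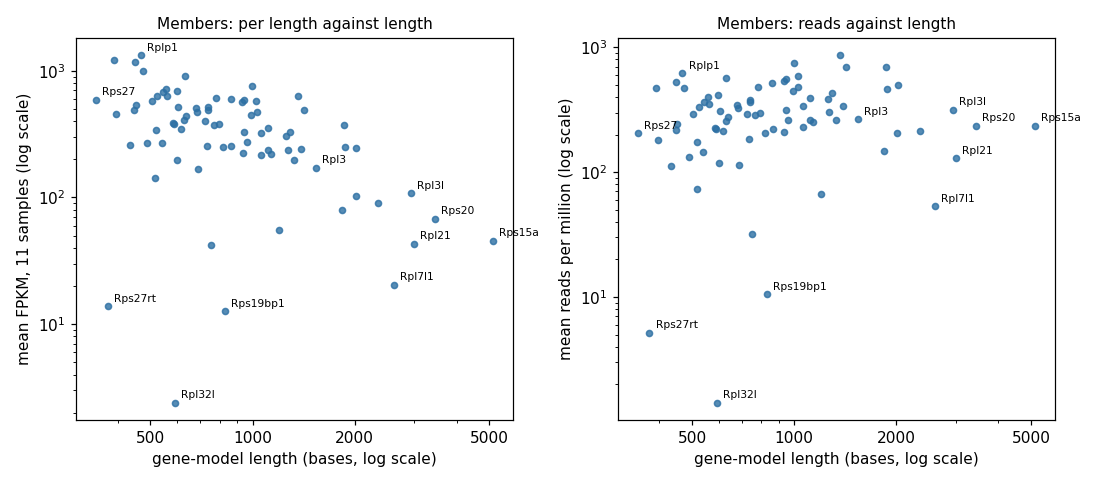
Level of each of the 78 members against gene model length on log axes, as mean FPKM and as mean reads per 1000000 over the 11 samples, with 1 point per member. FPKM falls towards longer models, with a Spearman rho of -0.49, while reads show little relation to length, with a rho of 0.15.

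No ribosomal protein mRNA differed between PCOS and control hearts at an adjusted p under 0.05. Of the 78 members, 0 passed in limma on log2(FPKM + 1), with p adjusted by the Benjamini-Hochberg method over all 10891 tested rows, of which 15 passed (0.138%). At an unadjusted p under 0.05 the count of members was also 0, against 6.68% of tested rows. Limma's voom on the recovered reads gave 0 members by either threshold, against 0.11% and 6.48% of 10876 rows. Even so, 70 members had a positive difference, PCOS minus control, and 8 a negative one, which is 89.7% positive against 50.6% of tested rows. The differences ran from -0.18 for Rps27a to 0.25 for Rpl21 on the log2(FPKM + 1) scale, with a median of 0.08 over members and 0.002 over tested rows. The median standard error of a member was 0.103, larger than the median difference. In no member did the PCOS and control samples separate without overlap, against 0.45% of tested rows with every PCOS sample above and 0.248% with every PCOS sample below every control sample.

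**Figure D2:**
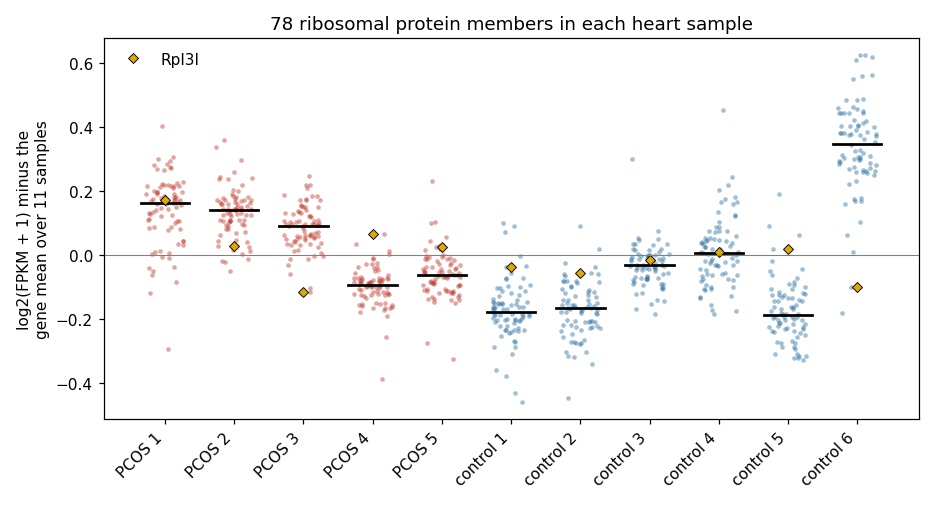
Deviation of each of the 78 members from its own mean over all samples, in log2(FPKM + 1), for the 5 PCOS samples and, right of them, the 6 control samples, with 1 point per member, a diamond for Rpl3l and a line at each sample's median. The member medians are above 0 in PCOS replicates 1 to 3 and in control replicates 4 and 6, and control replicate 6 has the highest, at 0.35.

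The members moved as a block from library to library. Summed over the members, FPKM were 33820, 33094, 32464, 28282 and 29002 in PCOS replicates 1 to 5. In control samples the lowest sum was 26711, the median 28400 and the highest 38506 FPKM. All 5 PCOS sums lay within the control range, which control replicate 6 set at its upper end. The next highest control sum was 31173 FPKM in replicate 4, and PCOS replicates 1, 2 and 3 lay above it. Control replicate 6 was the highest of all 11 samples in 68 of the 78 members, and control replicates 5, 2 and 1 were the lowest in 32, 22 and 19.

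Over the 11 samples, 56 members correlated with the median of the other members at a Pearson r above 0.9, and the median over members was 0.94. Over all 3003 pairs of members the median r was 0.86, and it was 0.81 without control replicate 6. These values are a description, since every gene of a library shares its depth and composition. The 5 members with an r under 0.5 were Rpl3l at -0.06, Rpl32l at -0.41, Rplp0 at 0.27, Rpl7l1 at 0.29 and Rps27rt at 0.30, of which Rpl32l and Rps27rt had means of only 18.8 and 68.2 reads per sample.

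Without control replicate 6 the differences were larger and the errors smaller, but still 0 members passed an adjusted p under 0.05, where 32 of 10891 rows passed (0.294%). The median difference of the members was 0.16, and 73 of 78 were positive. At an unadjusted p under 0.05 there were 42 members, all of them higher in PCOS, against 19.4% of tested rows, 9.62% higher and 9.75% lower. The smallest adjusted p was 0.093, for Rpl29. Every PCOS sample lay above every remaining control sample in 3 members, Rpl29, Rps16 and Rps6, against 1.7% of tested rows, and below every remaining control sample in 0, against 1.85%.

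**Figure D3:**
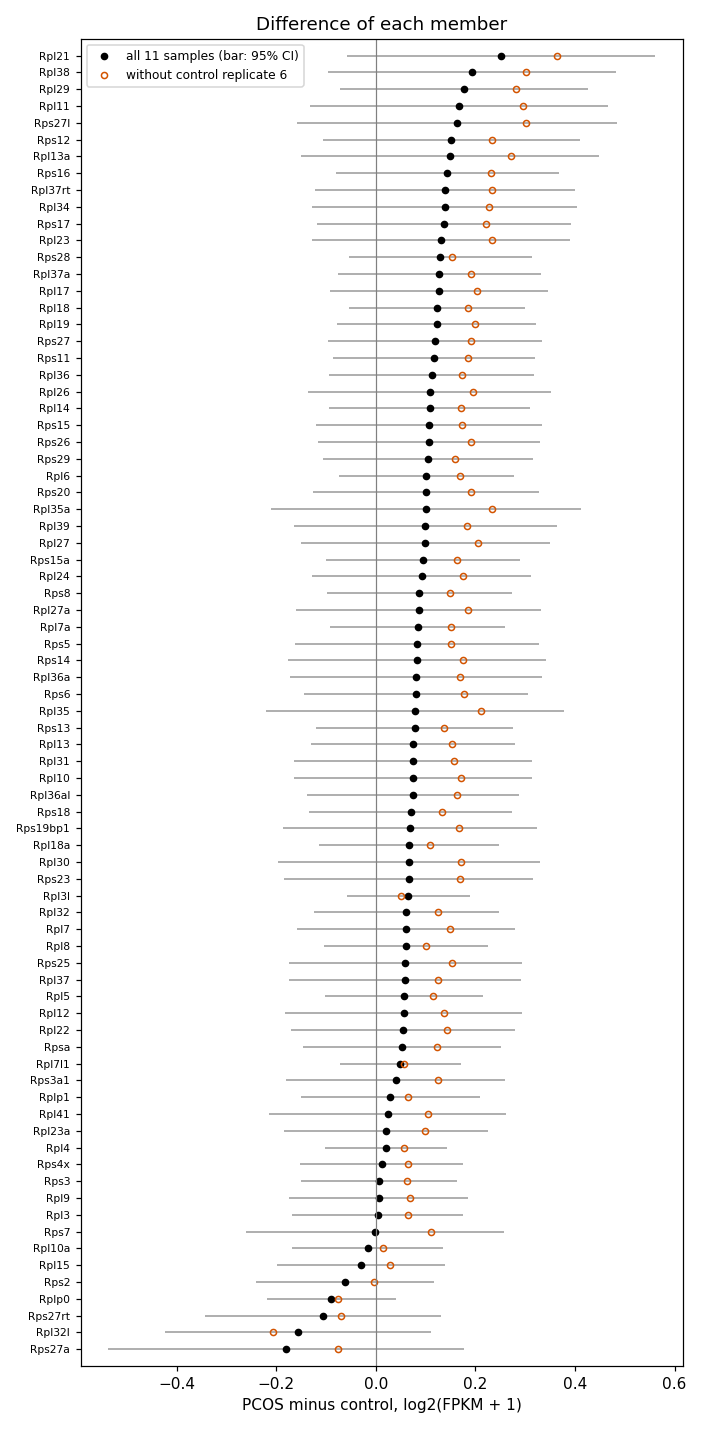
Difference of each of the 78 members, PCOS minus control, in log2(FPKM + 1), with its 95% interval from limma over all 11 samples, and, as a second mark, the difference without control replicate 6. The values over all samples run from -0.18 for Rps27a to 0.25 for Rpl21, and every interval includes 0.

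Among large-subunit proteins, 41 of the 44 listed had a positive difference and 3 a negative one, with a median of 0.08 (0.17 without control replicate 6) and 0 past the test. Rpl21 (chr5:146832890-146837032) had the largest difference of any member. It measured 56.1, 51.9, 47.5, 38.7 and 40.3 FPKM in PCOS replicates 1 to 5, and its lowest, median and highest control values were 32.2, 36.6 and 57.7 FPKM. PCOS replicates 1 to 3 exceeded 5 of the 6 controls, PCOS replicates 4 and 5 lay among them, and control replicate 6 was the highest of all. The difference was 0.25 ± 0.14 (SE; adjusted p = 0.749, limma), and 0.36 ± 0.11 without that control (adjusted p = 0.129, limma).

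Rpl29 (chr9:106428889-106431568), a large-subunit protein that also binds heparin, measured 90.6, 95.1, 80.1, 74.8 and 85.0 FPKM in PCOS replicates 1 to 5. Its lowest, median and highest control values were 67.6, 69.5 and 108 FPKM. All 5 PCOS samples lay above 5 controls and below control replicate 6. The difference was 0.18 ± 0.12 (SE; adjusted p = 0.756, limma) with all samples and 0.28 ± 0.06 without that control.

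Rpl35a (chr16:33056453-33060189), one of the genes mutated in human Diamond-Blackfan anaemia, varied most among control samples after Rps27l, with a coefficient of variation of 27.7%. It measured 224.9, 208, 218, 177 and 181 FPKM in PCOS replicates 1 to 5. The lowest, median and highest control values were 161, 169 and 299 FPKM, and the groups overlapped through control replicates 3 and 6. The difference was 0.10 ± 0.14 (SE). Without replicate 6 it was 0.23 ± 0.08 (adjusted p = 0.143, limma), and the coefficient of variation of the controls was 7.41%. Rpl38, a large-subunit protein known in mouse embryos for its part in translating Hox mRNAs, averaged 284 ± 33.8 FPKM in PCOS and 252 ± 58.2 FPKM in control samples (SD), a difference of 0.19 ± 0.13 (SE), or 0.30 ± 0.09 without control replicate 6 (adjusted p = 0.137, limma). Rpl11, which also binds the p53 regulator Mdm2, averaged 349 ± 33.7 FPKM in PCOS and 317 ± 83.6 FPKM in control samples (SD), a difference of 0.17 ± 0.14 (SE), or 0.29 ± 0.08 without that library (adjusted p = 0.106, limma). Neither passed the test over all genes, and neither Rpl38 nor Rpl11 was among the members named by rule.

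Rpl41 (chr10:128548110-128549168) measured 1234, 1172, 1352, 1034 and 1088 FPKM in PCOS replicates 1 to 5. Its lowest, median and highest control values were 981, 1120 and 1522 FPKM. The groups overlapped over nearly their whole range, and the difference was 0.02 ± 0.11 (SE), or 0.10 ± 0.09 without control replicate 6. Its sign turned in 4 of the 11 fits that left out 1 sample.

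Small-subunit proteins gave the same picture, with 23 of the 26 listed positive and 3 negative, a median of 0.08 (0.16 without control replicate 6) and 0 past the test. Rps28 (chr17:33823036-33824562) measured 535, 477, 520, 432 and 444 FPKM in PCOS replicates 1 to 5. Its lowest, median and highest control values were 387, 434 and 512 FPKM, so PCOS replicates 1 and 3 alone exceeded every control sample. The difference was 0.13 ± 0.09 (SE; adjusted p = 0.761, limma), or 0.15 ± 0.08 without control replicate 6, and it was one of the few members in which control replicate 6, at 477 FPKM, was not the highest sample.

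Rps29 (chr12:69157722-69159186) measured 1469, 1284, 1306, 1084 and 1203 FPKM in PCOS replicates 1 to 5. The lowest, median and highest control values were 1052, 1119 and 1416 FPKM, and PCOS replicate 1 was the highest sample of all. The difference was 0.11 ± 0.10 (SE), or 0.16 ± 0.09 without control replicate 6. Rps27 (chr3:90212667-90213648), the member with the shortest gene model at 346 bases, measured 655, 693, 640, 569 and 530 FPKM in PCOS replicates 1 to 5, and 502, 543 and 724 FPKM as the lowest, median and highest control values. Its difference was 0.12 ± 0.10 (SE), or 0.19 ± 0.08 without that library (adjusted p = 0.205, limma).

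Rps15a (chr7:118104374-118116147) had the longest model at 5136 bases, close to its GENCODE transcript of 5179 bases. It measured 49.1, 50.9, 46.6, 42.8 and 46.9 FPKM in PCOS replicates 1 to 5, and 38.3, 43.6 and 56.1 FPKM as the lowest, median and highest control values. PCOS replicates 1 to 3 and 5 lay above 5 of the 6 controls. The difference was 0.09 ± 0.09 (SE), or 0.16 ± 0.06 without control replicate 6.

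Rps6, the small-subunit protein that S6 kinases phosphorylate, averaged 248 ± 16.4 FPKM in PCOS and 237 ± 44.8 FPKM in control samples (SD), or 219 ± 8.94 FPKM in the controls without replicate 6. Rps16 averaged 365 ± 27.7 FPKM in PCOS and 333 ± 59.4 FPKM in control samples (SD), or 311 ± 22.6 FPKM in the controls without replicate 6. Rps6 and Rps16 were chosen after their values were seen, for the lack of overlap without that library, and their adjusted p without it were 0.136 and 0.123 (limma).

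Rps27a (chr11:29545842-29548040), which is made as a fusion with ubiquitin, had the most negative difference. It measured 281, 241, 242, 187 and 201 FPKM in PCOS replicates 1 to 5, and its lowest, median and highest control values were 179, 261 and 372 FPKM. The 5 PCOS samples lay inside the control range. The difference was -0.18 ± 0.17 (SE; adjusted p = 0.809, limma) and -0.07 ± 0.14 without control replicate 6.

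The stalk and Rpsa can be read side by side. Rplp0 (chr5:115559467-115563729), which anchors the stalk on the large subunit, measured 586, 626, 659, 592 and 613 FPKM in PCOS replicates 1 to 5. Its lowest, median and highest control values were 619, 631 and 739 FPKM. PCOS replicates 1, 4 and 5 lay below every control sample and the other 2 within them, and the difference was -0.09 ± 0.06 (SE; adjusted p = 0.77, limma), or -0.08 ± 0.06 without control replicate 6.

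Rplp1 (chr9:61913283-61914510), which pairs with its partner on the stalk, measured 1484, 1338, 1411, 1206 and 1261 FPKM in PCOS replicates 1 to 5, and 1166, 1256 and 1522 FPKM as the lowest, median and highest control values. Its difference was 0.03 ± 0.08 (SE), or 0.07 ± 0.08 without control replicate 6. Rpsa (chr9:120127766-120132369), a small-subunit protein also known as the laminin receptor precursor, measured 410, 380, 414, 349 and 356 FPKM in PCOS replicates 1 to 5, and 325, 349 and 469 FPKM as the lowest, median and highest control values. For both genes the PCOS samples lay within the range of the controls, and the difference of Rpsa was 0.05 ± 0.09 (SE), or 0.12 ± 0.07 without that library.

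Rpl3l, the form of Rpl3 made in striated muscle, was expressed in all 11 hearts, between 99.2 and 121 FPKM. Rpl3l (chr17:24727826-24736143) measured 121, 110, 99.2, 113 and 109 FPKM in PCOS replicates 1 to 5, and 100, 105 and 109 FPKM as the lowest, median and highest control values. PCOS replicate 1 was the highest and PCOS replicate 3 the lowest of all samples, so the control range lay inside the PCOS range. The difference was 0.07 ± 0.06 (SE; 95% interval -0.06 to 0.19; adjusted p = 0.809, limma) and 0.05 ± 0.05 without control replicate 6.

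Its parent Rpl3 (chr15:80077781-80083406) measured 175, 185, 178, 157 and 164 FPKM in PCOS replicates 1 to 5. The lowest, median and highest control values were 153, 168 and 212 FPKM, the highest again in control replicate 6. The groups overlapped, the difference of Rpl3 was 0.004 ± 0.08 (SE; 95% interval -0.17 to 0.18), and it was 0.07 ± 0.05 without that control. The coefficient of variation over control samples was 3.07% for Rpl3l, the lowest of the 78 members, and 11.9% for Rpl3, against a median of 16.7% over members. In PCOS samples Rpl3l averaged 110 ± 7.92 FPKM and Rpl3 172 ± 11.2 FPKM (SD), so the narrow spread of Rpl3l was seen in the controls. Without control replicate 6 the coefficient over controls was 2.22% and 4.3%, against a median of 7.48%.

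Which of the pair was higher depended on the length used. Per the deposited FPKM, Rpl3l stood at 62.6% of Rpl3. In recovered reads it stood at 119.2%, with a mean of 4185 reads per sample (3785 to 4811) for Rpl3l and 3509 (2794 to 4192) for Rpl3. The gene model behind the FPKM of Rpl3l was 2936 bases, against 1375 bases for its GENCODE transcript, while that of Rpl3 was 1541 bases against 1351. Divided by the GENCODE transcript lengths, the reads of Rpl3l came to 117.2% of those of Rpl3.

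Within samples, the ratio of Rpl3l to Rpl3 was 0.693, 0.593, 0.558, 0.716 and 0.668 in PCOS replicates 1 to 5. In control replicates 1 to 6 it was 0.626, 0.641, 0.626, 0.642, 0.713 and 0.474. The groups overlapped, and control replicate 6 had the lowest ratio. The difference in mean log2 ratio was 0.06 (exact two-sided permutation test over 462 splits, p = 0.615; 0.876 adjusted over 7 paralog pairs), with 64.6 ± 6.74% in PCOS and 62.0 ± 7.88% in control samples (SD). Without control replicate 6 it was -0.01 (exact permutation p = 0.865), so the sign rested on that library.

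**Figure D4:**
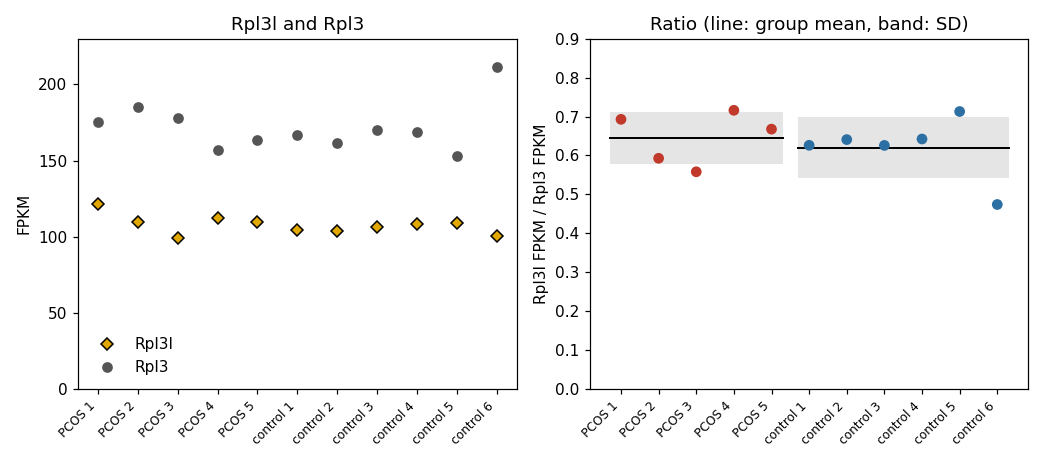
FPKM of Rpl3l and Rpl3 in each sample, and the ratio of Rpl3l to Rpl3 within each sample, with PCOS left of control and 1 point per gene and sample; in the plot of the ratio a line marks the group mean and a band 1 SD either side. Rpl3l lies between 99.2 and 121 FPKM, both ends in PCOS samples, while control replicate 6 is highest for Rpl3, at 212 FPKM, and lowest for the ratio, at 0.474.

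The rows whose levels followed Rpl3l most closely over the 11 samples were Cog1 (Pearson r 0.87), Anks3 (0.86), Igflr1 (0.85), Ppm1d (0.84) and Ciao3 (0.84), among 9478 named rows. The lowest r belonged to Ccnd2 (-0.93), Dram2 (-0.89), Ccdc43 (-0.89), Zc2hc1a (-0.88) and Trappc4 (-0.87). No ribosomal protein was among them, and with 11 samples that share their libraries such extremes describe these samples only.

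The other paralogs were lower in FPKM than their parents, Rpl36al by the least. None of the 7 ratios differed between the groups past an adjusted p of 0.05. Rpl36al, which encodes nearly the same protein as Rpl36a, measured 136, 151, 146, 138 and 151 FPKM in PCOS replicates 1 to 5, and 122, 127 and 186 FPKM as the lowest, median and highest control values. Rpl36a measured 310, 288, 305, 241 and 243 FPKM in PCOS replicates 1 to 5, and 224.7, 255 and 353 FPKM as the lowest, median and highest control values. Rpl36al stood at 52.7 ± 7.17% of Rpl36a in PCOS and 52.6 ± 3.45% in control samples (SD; exact permutation p = 0.970), and without control replicate 6 the log2 difference of the ratio was -0.006 as it was with all samples (exact permutation p = 0.984).

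Rps27l, a paralog of Rps27 known as a p53 target, measured 63.6, 59.7, 60.7, 53.1 and 54.6 FPKM in PCOS replicates 1 to 5. Its lowest, median and highest control values were 40.3, 48.6 and 84.5 FPKM, the widest relative spread of the members, at a coefficient of variation of 29.8%, or 11.3% without control replicate 6. PCOS replicate 4 lay below control replicate 3, at 54.5 FPKM, and the other 4 PCOS samples lay above every control but replicate 6. The difference was 0.16 ± 0.15 (SE) and 0.30 ± 0.08 without control replicate 6 (adjusted p = 0.106, limma). Its ratio to Rps27 was 9.49 ± 0.611% in PCOS and 9.23 ± 1.26% in control samples (SD; exact permutation p = 0.625). The log2 difference of the ratio was 0.05 with all samples and 0.12 without control replicate 6 (exact permutation p = 0.0556; 0.185 adjusted over the 7 pairs). The gene model of Rps27l was 1196 bases, against 575 for its GENCODE transcript, so its ratio to Rps27 would be higher per length of that transcript.

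Rps27rt measured 13.1, 17.9, 12.7, 12.2 and 10.7 FPKM in PCOS replicates 1 to 5, and 12.1, 14.6 and 16.2 FPKM as the lowest, median and highest control values. The groups overlapped, with PCOS replicate 2 above and PCOS replicate 5 below all controls. Its ratio to Rps27 was 2.14 ± 0.251% in PCOS and 2.53 ± 0.371% in control samples (SD), a log2 difference of -0.23 (exact permutation p = 0.0801; 0.561 adjusted over the 7 pairs) and of -0.27 without control replicate 6 (exact permutation p = 0.0794; 0.185 adjusted), and the identical coding sequence given above bears on both values.

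Rpl7l1 (chr17:46773907-46782656) kept a narrow range, with 20.3, 21.8, 21.9, 20.4 and 19.6 FPKM in PCOS replicates 1 to 5, and 18.6, 20.2 and 21.5 FPKM as the lowest, median and highest control values. Its parent Rpl7 measured 618, 638, 581, 525.9 and 544 FPKM in PCOS replicates 1 to 5, and 499, 525 and 755 FPKM as the lowest, median and highest control values. Rpl7 was highest in control replicate 6, as most members were, while Rpl7l1 lay at 20.5 FPKM there, within its range in the other samples. The ratio was 3.59 ± 0.245% in PCOS and 3.64 ± 0.53% in control samples (SD; exact permutation p = 0.942). The log2 difference of the ratio was -0.01 with all samples and -0.09 without control replicate 6 (exact permutation p = 0.238).

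Rpl37rt measured 51.1, 44.8, 46.4, 36.6 and 43.7 FPKM in PCOS replicates 1 to 5, and 33.7, 39.1 and 55.9 FPKM as the lowest, median and highest control values. It stood at 17.0 ± 1.13% of Rpl37 in PCOS and 16.1 ± 1.45% in control samples (SD; exact permutation p = 0.242), a log2 difference of 0.08, or 0.11 without control replicate 6 (exact permutation p = 0.127). Rpl37 itself averaged 262 ± 30.1 FPKM in PCOS and 253 ± 39.8 FPKM in control samples (SD). The groups overlapped for both genes.

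Rpl32l, the lowest member, measured 1.75, 2.26, 2.24, 1.82 and 2.95 FPKM in PCOS replicates 1 to 5, and 1.97, 2.45 and 3.61 FPKM as the lowest, median and highest control values. Its ratio to Rpl32, which averaged 593 ± 44.8 FPKM in PCOS and 570.5 ± 74.1 FPKM in control samples (SD), was 0.376 ± 0.101% in PCOS and 0.458 ± 0.108% in control samples (SD; exact permutation p = 0.236). The log2 difference of the ratio was -0.28 with all samples and -0.42 without control replicate 6 (exact permutation p = 0.0635; 0.185 adjusted over the 7 pairs). The groups overlapped for Rpl32l, with PCOS replicates 1 and 4 below every control sample. At a mean of 18.8 reads per sample, counting error is a large part of that spread.

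Across tested rows, the difference, PCOS minus control, was lower in genes with longer models. Most members have short models, and the part of length in their differences was not tested. Over 10876 tested rows the Spearman rho between difference and model length was -0.37, and -0.48 without control replicate 6. Over the 78 members it was -0.13 and -0.15, and over the 70 with a GENCODE transcript length, by that length, -0.32 and -0.26. These are correlations across genes that share libraries, given as descriptions.

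Compared at like length, the members did not stand above other genes in the short classes. Under 500 bases the median difference was 0.10 over 11 members and 0.13 over 54 other rows, and between 500 and 1000 bases it was 0.075 over 40 members and 0.114 over 503 other rows. Between 1000 and 2000 bases it was 0.08 over 19 members and 0.06 over 1967 other rows, and between 2000 and 4000 bases 0.06 over 7 members and 0.01 over 3947 other rows. The single longer member, Rps15a, stood at 0.095, against -0.039 for 4327 other rows. Without control replicate 6 the medians from the shortest class to the longest were 0.169, 0.165, 0.168, 0.116 and 0.163 for members, and 0.222, 0.171, 0.093, 0.007 and -0.063 for other rows.

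**Figure D5:**
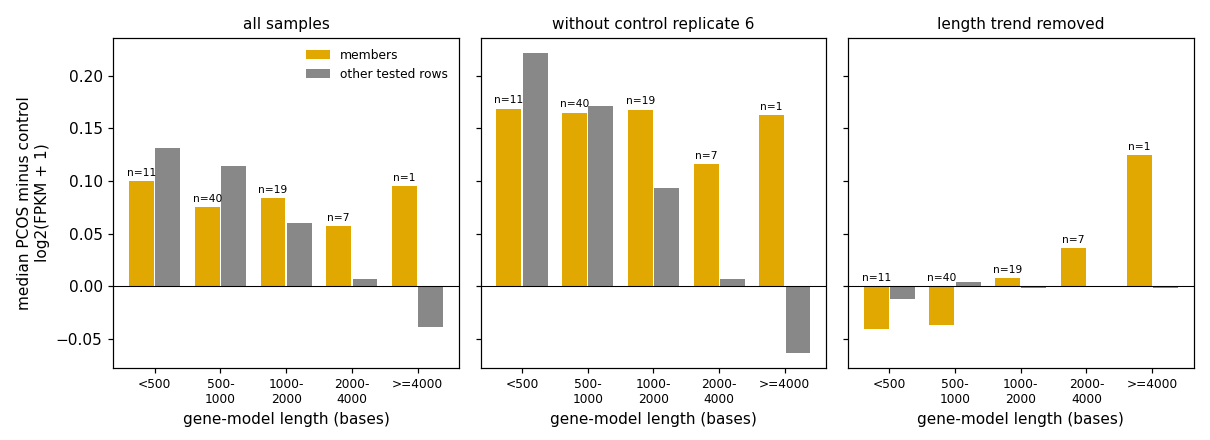
Median difference, PCOS minus control, in log2(FPKM + 1), of the members and of the other tested rows in 5 classes of gene model length in bases, over all 11 samples, without control replicate 6, and with the length trend removed, with the number of members above each bar. In the other rows the median falls with length, to -0.039 and -0.063 in the longest class of the first and second panels, while the members keep a positive median in every class there, and with the trend removed the medians of the members are -0.041 and -0.037 in the shortest classes.

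The same relation was tested over samples. The slope of a sample's deviations on log2 length, over all tested rows, averaged -0.0218 ± 0.0352 in PCOS and 0.0181 ± 0.0812 in control samples (SD, n = 5 and 6), per doubling of length. The difference of -0.0399 did not pass an exact two-sided permutation test (p = 0.348; the smallest p that 462 splits allow is 0.00433). Control replicate 6 had the lowest slope of all samples, at -0.133, and without it the difference was -0.0702 (exact permutation p = 0.0238). The same library carried the highest ribosomal protein level and the lowest slope among the controls.

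With the length trend removed in each sample by a smooth curve over all rows, the direction of the members turned. Then 27 members had a positive and 51 a negative difference, with a median of -0.03, and 0 passed an adjusted p under 0.05, against 0.11% of 10876 rows. At an unadjusted p under 0.05 there were 6 members, all lower in PCOS (Rpl9, Rplp0, Rps2, Rps27a, Rpl41 and Rpl23a), against 6.47% of rows in either direction and 3.35% lower. Without control replicate 6 as well, 35 were positive and 43 negative, the median was -0.01, and 0 passed the adjusted test, against 0.156% of rows. At an unadjusted p under 0.05 there were then 15 members, 8 of them higher in PCOS, against 13.3% of rows, 5.84% higher and 7.42% lower. The removal left the differences of the members positively related to length (Spearman rho 0.43), against -0.13 before it, while the tested rows were then at 0.02. Rpl3l hardly moved, with a difference of 0.06 ± 0.06 (SE) after removal of the trend.

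Of the genes that make ribosomes, or that regulate their mRNAs, none passed the adjusted test in limma. Fau, a small-subunit protein made as a fusion with a ubiquitin-like protein, was at 0.13 ± 0.11, and Rack1, a scaffold on the small subunit, at -0.005 ± 0.06 (SE). Of 24 genes of ribosome biogenesis, 13 were positive and 11 negative, with a median of 0.006 (0.015 without control replicate 6). They include Ncl at 0.07 ± 0.06, a nucleolar protein of ribosomal RNA processing, and Nolc1 at -0.14 ± 0.06 (SE; adjusted p = 0.738, limma), a nucleolar chaperone.

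Of 15 other mRNAs with a 5′ TOP motif, 6 were positive and 9 negative, with a median of -0.01. Without control replicate 6, 11 of the 15 were positive, with a median of 0.04, and with the length trend removed their median was -0.05. No test compared them with the members. Eef1d, a subunit of the elongation factor exchange complex, was at 0.16 ± 0.08, and Eef2, the translocation factor, at -0.11 ± 0.08 (SE). Tpt1, one of the most abundant of them, averaged 2398 ± 206 FPKM in PCOS and 2334 ± 383 FPKM in control samples (SD). Of 11 genes listed for the mTORC1 and LARP1 arm, 2 were positive and 9 negative, with a median of -0.09 (-0.155 without control replicate 6). With the length trend removed their median was -0.066. The list pools genes that promote the arm with genes that restrain it, so its median gives no direction for the arm. Mtor, the kinase itself, was at -0.09 ± 0.08, Larp1 at -0.08 ± 0.08 and Myc, a transcription factor for ribosomal genes, at -0.31 ± 0.14 (SE; adjusted p = 0.738, limma). Myc lay near the FPKM minimum, at 1.08 to 1.38 FPKM in PCOS samples, and control replicate 5 was its highest sample at 3.16 FPKM (next 1.85). In these lists 0 genes passed the adjusted test with or without control replicate 6. Eef1a2, the muscle form of elongation factor 1A, averaged 733 ± 29.4 FPKM in PCOS and 799 ± 121 FPKM in control samples (SD), a difference of -0.11 ± 0.10 (SE).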

How the data were processed

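Heart RNA of 5 PCOS and 6 control samples was sequenced. Per the labels' protocols, a mirVana kit gave the RNA and a stranded TruSeq mRNA kit the libraries. The submitters' processing notes name HISAT2 2.2.1, HTSeq 0.13.5 and the build mm10, with no settings for strand or multiple mapping. The authors deposited gene-level FPKM, which were used as they stand. Rows were named through the GRCm38.p6 RefSeq table (87.2% matched). FPKM steps gave whole reads in all 15939 rows above 0 in at least 3 samples, within 0.05 of a whole number, and with them depth and model length. Since FPKM are shares of a library, levels are relative.

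The main test was limma 3.58.1 (R 4.3.3, eBayes with a trend) on log2(FPKM + 1) over rows with a mean of at least 1 FPKM, which understates the change of low genes. It was checked on simulated data. P-values were adjusted over all tested rows by the Benjamini-Hochberg method. Ratios of paralogs and slopes on length were compared by exact permutation tests over samples (Python 3.11.15, numpy 2.4.6). The length trend was removed per sample by lowess with a span of 0.3. Members named by rule were Rpl3, Rpl3l and each other paralog with its parent, the stalk and Rpsa, and the 3 with the highest FPKM. Also taken were the 3 with the smallest p in each direction, the shortest and longest model, and the 2 with the largest control variation. Each is given by PCOS sample and by control range and median, but Rpl37 and Rpl32 by mean and SD. The members and gene lists were chosen with earlier results of these data known. Alternatives were another pseudocount, other filters, scalings and weights, the replicate number as a block, voom on recovered reads, and leaving out samples. Further alternatives were chosen after seeing the data, the length trend removed without control replicate 6, and GENCODE lengths for the slope. Some genes of these lists are not reported here.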

Additional observations from a re-analysis of the deposited data

Results flagged for a closer look

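Of 54 groups of values tested, 9 held a sample far from the other samples of its group. Chance flags about 1 in 20 such groups where they are independent. These are not, since the genes share their libraries and moved together, so the 9 flags are not 9 separate results. In all 9 the sample was control replicate 6. It was the highest control for Rpl21 at 57.67 FPKM (next 41.24), Rpl29 at 108.1 FPKM (next 72.95), Rpl3 at 211.7 FPKM (next 169.8) and Rpl35a at 298.6 FPKM (next 192.5). It was also the highest for Rpl36a at 353.4 FPKM (next 272.6), Rpl36al at 185.9 FPKM (next 144.1), Rpl7 at 755 FPKM (next 557.6) and Rps27l at 84.48 FPKM (next 54.5). It had the lowest ratio of Rpl3l to Rpl3, at 0.4739, with the next at 0.6259. The report gives the differences of these genes or the ratios of their pairs without it, and what set it apart was not tested.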

How the results depend on the processing

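No member passed an adjusted p under 0.05 in any of the 23 alternative settings, and at most 42 of them had an unadjusted p under 0.05 (limma, without control replicate 6). The count over all tested rows was 15 in the main fit, 5 with a minimum of 5 FPKM, 25 with sample weights, and between 10 and 32 when 1 sample was left out, the highest without control replicate 6. The median difference of the members, 0.08, was 0.036 after quantile normalization, 0.142 with sample weights, 0.006 without control replicates 2 and 5, 0.114 without control replicates 2, 5 and 6, and between 0.051 and 0.163 when 1 sample was left out. It was -0.026 with the length trend removed and -0.006 with that and without control replicate 6, an alternative chosen after seeing the data. The pooled SD of the member median between samples was 0.172. Control replicates 5 and 2, left out together above, were the lowest of all samples in 32 and 22 members. The cause of these shifts was not tested.

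The replicate number as a block uses the 10 samples numbered 1 to 5 and so leaves out control replicate 6. With this block 27 rows and 0 members were called, 33 members had an unadjusted p under 0.05 (background 18.0%), and the member median was 0.163. Same-numbered samples deviated together at r between -0.118 and 0.254, over 0.1 in 3 of 5 pairs. Of the 5 PCOS samples, 0 correlated best with their own number. The labels do not say whether the number pairs samples, and these correlations cannot decide it. The log2 ratio of Rpl3l to Rpl3, 0.062, was -0.014 with the block (exact p = 0.875) and between -0.014, without control replicate 6, and 0.113 when 1 sample was left out. The slope on length, -0.0399, was -0.0702 without control replicate 6 (exact permutation p = 0.0238) and lay between -0.0702 and -0.0247 when 1 sample was left out. With GENCODE lengths, also chosen after seeing the data, it was -0.0496. The slope by protein length was not run.

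Of 551 values of the 24 members named by rule, 45 turned sign, in 13 members, and none of the 551 passed an adjusted p under 0.05. Under quantile normalization Rpl3 was at -0.039, Rpl41 at -0.027, Rplp1 at -0.08 and Rpsa at -0.007. With the length trend removed, Rpl3 was at -0.057, Rpl32 -0.071, Rpl35a -0.023, Rpl36a -0.053, Rpl36al -0.056, Rpl37 -0.044, Rpl41 -0.115, Rpl7 -0.037, Rplp1 -0.108, Rps27 -0.033, Rps28 -0.015 and Rps29 -0.04. With the trend removed and without control replicate 6, Rpl3 was at -0.019, Rpl32 -0.083, Rpl36a -0.041, Rpl36al -0.042, Rpl37 -0.029, Rpl41 -0.114, Rplp1 -0.149, Rps27 -0.051, Rps28 -0.075 and Rps29 -0.071. Without control replicates 2 and 5, Rpl3 was at -0.057, Rpl36a -0.003, Rpl37 -0.04, Rpl41 -0.058, Rpl7 -0.008, Rplp1 -0.023 and Rpsa -0.013. When 1 sample was left out, only Rpl3 (-0.028 to 0.065), Rpl41 (-0.028 to 0.104) and Rplp1 (-0.009 to 0.072) turned sign. The lowest level, that of Rpl32l, rests on few reads.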
